A study of Mus musculus with 2 samples.

Results

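The genes described here are those of the nuclear-encoded respiratory chain and ATP synthase, taken by their names: every gene whose symbol begins with Nduf, Uqcr, Atp5 or Cox4 to Cox8. Of 89 genes matched by name, the rule left out Ndufa4l2, whose product is an inhibitory relative of a subunit rather than a working part. Cox8c was left out because it was seen in 25 cells, under the minimum of 50. This left 87 genes of 28365 in the tables: 37 named for complex I subunits, 8 complex I assembly factors, 8 of complex III, 17 of complex IV and 17 named for the ATP synthase. Just inside the minimum were Cox8b, seen in 52 cells, Cox6a2 in 80 and Cox7b2 in 87, and the next gene, Cox7a1, was seen in 492. Grouping follows the symbols, so Ndufa4, now assigned to complex IV, stands with complex I, and Atp5s, which the current annotation calls Dmac2l, stands with the ATP synthase.

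The cells were non-hematopoietic cells of femur and tibia of C57BL/6 mice at postnatal day 30, enriched by magnetic depletion of blood cells, and their RNA was read by single-cell RNA sequencing (scRNA-seq) on the BD Rhapsody system, in which each captured molecule is counted by a unique molecular identifier (UMI). There was 1 Control library, from mice with the genotype Dach1OE +/f, which carry the silent Dach1 transgene without Cre, and 1 Dach1OE library, from Apj CreERT2 - Dach1OE +/f mice, in which a Cre under the control of Apj (Aplnr) switches the transgene on. Both groups were treated with tamoxifen, and per the methods each library pooled 2 mice, of both sexes per the labels. Cells holding only Xist UMIs and cells holding only UMIs of 4 Y-linked genes are therefore set side by side below. They stand for the female and the male cells of a library, without counting as replicates. Cells with neither kind of UMI, or with both, are in neither group. Of 9189 Control endothelial cells, 2939 were Xist cells, 2215 were Y-linked cells and 315 held both. The median depth was 3170 UMIs in these Xist cells and 3470 in the Y-linked cells, against 2798 over all Control endothelial cells. The driver is active in capillary endothelial cells (ECs), at which the transgene is aimed.

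The respiratory chain sits in the inner mitochondrial membrane. Complex I, also called NADH dehydrogenase, and complex III, also called cytochrome bc1, pass electrons on to complex IV, cytochrome c oxidase, which reduces oxygen, and the proton gradient these complexes build is spent by the ATP synthase. Most subunits are encoded in the nucleus and imported, while a small core is encoded in mitochondrial DNA. A few complex IV subunits and subunit c of the ATP synthase come from several nuclear genes, and the choice between such paralogues differs among tissues. Among them, Cox4i2 is the form of subunit IV known from lung, vascular smooth muscle and hypoxic cells. Bone holds cells with very different supplies of oxygen, among them growth plate chondrocytes, which live without vessels and rely largely on glycolysis.

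Some of these genes hold promoter motifs known from the control of mitochondrial genes, and a few stretches are printed as examples of matches. RefSeq promoter sequences on GRCm38.p6, from 250 bases before to 50 after the start, were at hand for 73 of the 87 genes. The NRF1 motif, GCGCA, any base and GCGC in a row, searched like the others on both strands, lay in the promoters of 17 of them, or 23.3%, against 5.19% of all 27025 genes with a promoter sequence and 7.17% of 17492 protein-coding ones. A YY1 motif, AA, any base and ATGGCGG in a row, lay in 7 promoters, or 9.59%, against 1.59% of all genes and 2.26% of protein-coding ones. CCGGAAGT, the motif of ETS factors such as GABPA, lay in 5, or 6.85%, against 4.31% and 5.69%, and TCAAGGTCA, the motif of ERRA, in 1, or 1.37%, against 0.466% and 0.377%. The share with the ETS motif thus lay close to that of protein-coding genes, and the ERRA motif rests on 1 promoter. At least 1 of the 4 motifs was held by 27 promoters, or 37.0%, against 10.7% of all genes and 14.3% of protein-coding ones, and no member promoter had overlapping matches of different motifs. The lines below give the stretch around a match for the subunit c genes Atp5g2 (chr15:102671055-102671114, minus strand) and Atp5g3 (chr2:73911345-73911403, minus strand), whose balance in ECs is described below, for Ndufa11 (chr17:56717677-56717736, plus strand), which stood higher in Dach1OE stromal cells, and for Uqcrh (chr4:116075071-116075106, minus strand) as an example of the ETS motif. Capitals mark the match, which reads as the reverse complement of the letters above for Uqcrh and Atp5g3. Each line runs 5′ to 3′ toward a RefSeq start of its gene. The Atp5g2 stretch lies inside the gene as annotated by GENCODE (chr15:102662864-102672352, minus strand).
Atp5g2, NRF1 motif: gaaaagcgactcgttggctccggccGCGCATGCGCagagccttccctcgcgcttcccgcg
Ndufa11, NRF1 motif: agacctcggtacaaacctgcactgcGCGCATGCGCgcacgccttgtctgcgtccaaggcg
Atp5g3, ERRA motif: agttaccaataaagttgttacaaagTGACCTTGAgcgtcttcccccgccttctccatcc
Uqcrh, ETS motif: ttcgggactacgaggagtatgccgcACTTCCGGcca

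After filtering, 26466 Control and 29317 Dach1OE cells remained, with a median of 3793.5 and 4055 UMIs per cell, and a set of 8 markers per class placed 84.0% and 81.9% of them into 9 classes. Cells of a class held on average 4.2 to 7.8 of its own 8 markers and at most 2.57 of any other list. Cell indices shared by both libraries numbered 879, of which 174 fell into the same class. With 1 library per group there is no test of a difference between the groups. All intervals are exact 95% intervals that cover counting error only, and no p-value is given. Levels are UMIs of a gene per 1000000 UMIs of the class (CPM), and UMIs come from the 3′ ends of transcripts, so levels are compared between cells for a gene and between genes only as shares of a paralogue family.

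The 87 genes together made up 1.58% of the kept UMIs in the Control library and 1.63% in the Dach1OE library. Their summed level differed among classes far more than between libraries. It was highest in erythroid cells, at 29500 CPM in Control and 29416 CPM in Dach1OE. Megakaryocytes followed with 21790 and 19994 CPM, and mural cells, the contractile smooth muscle cells and pericytes around vessels, with 20538 and 20481 CPM. Leukocytes held 16110 and 15290 CPM, chondrocytes 14831 and 15264 CPM, and ECs 14558 and 14948 CPM. The lowest levels were found in marrow stromal cells with 12142 and 12820 CPM, fibroblasts with 10889 and 11815 CPM and osteoblasts with 10885 and 11586 CPM. Leukocytes, chondrocytes and ECs thus lay close together, between mural cells above and stromal cells below, in either library.

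**Figure D1:**
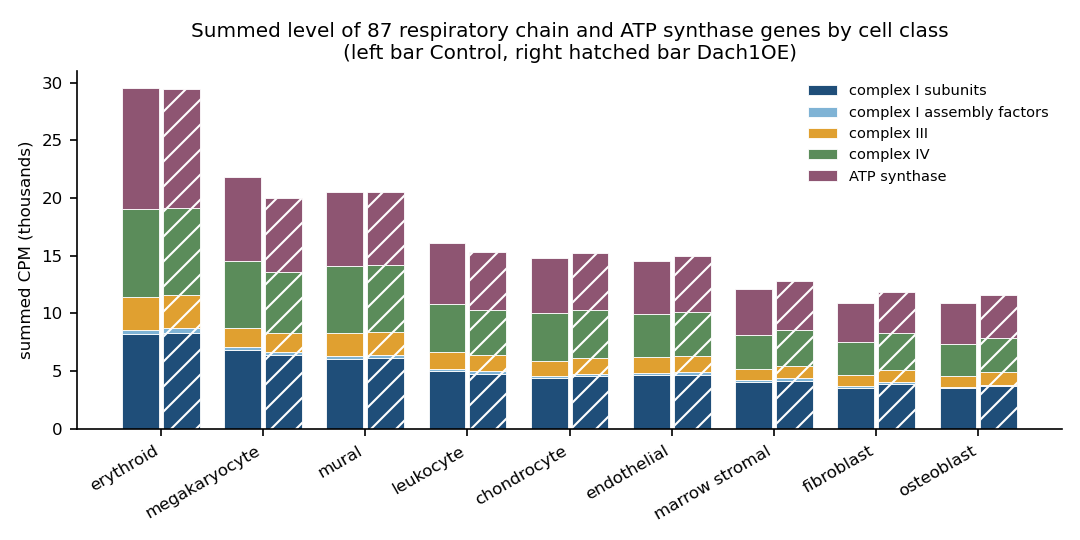
Summed level of the 87 genes in units of 1000 CPM for each cell class, stacked by complex, with a plain bar for the Control library and a hatched bar for the Dach1OE library. The erythroid bars reach 29500 and 29416 CPM, those of osteoblasts 10885 and 11586 CPM, and the bars of a class differ little between libraries.

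The proportions of the complexes differed less among classes than the level did, though erythroid cells, with the highest level, lay at the end of 2 ranges. In the Control library complex I subunits took between 27.9% of the members' UMIs in erythroid cells and 33.2% in marrow stromal cells, and the ATP synthase between 30.9% in fibroblasts and 35.4% in erythroid cells. Complex IV took 23.9% in marrow stromal cells and 28.2% in mural cells, the lowest and highest values. Complex III took 7.82% in megakaryocytes and 9.80% in mural cells. The complex I assembly factors, which help build the complex and leave it, took between 0.892% in osteoblasts and 1.58% in fibroblasts.

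Genes of the same complexes differed from each other in how much they varied. Among the 60 members with at least 100 UMIs in every class of the Control library, the median range between the highest and lowest class was 1.62 on the log2 scale. Erythroid cells held the highest level of 42 of them, and osteoblasts the lowest of 31. The level of Atp5g1, 1 of 3 genes for subunit c, ran from 187 CPM in fibroblasts to 1023 CPM in erythroid cells. Atp5b, the catalytic beta subunit, ran from 128 CPM in osteoblasts to 600 CPM in erythroid cells, and Ndufa10, an accessory complex I subunit, from 66.9 to 354 CPM in the same classes. Cox5a, a subunit of complex IV, was highest in megakaryocytes with 385 CPM and lowest in fibroblasts with 80.1 CPM. The widest range, 3.17, belonged to the complex I subunit Ndufa3, with 909 CPM in megakaryocytes against 101 to 263 CPM elsewhere, a value that is uncertain because Tfpt overlaps it on the opposite strand and intronic reads were counted. The most even were the complex I subunits Ndufa7, between 183 CPM in osteoblasts and 304 CPM in mural cells, Ndufb11 with a range of 0.85 and Ndufs5 with 0.98.

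**Figure D2:**
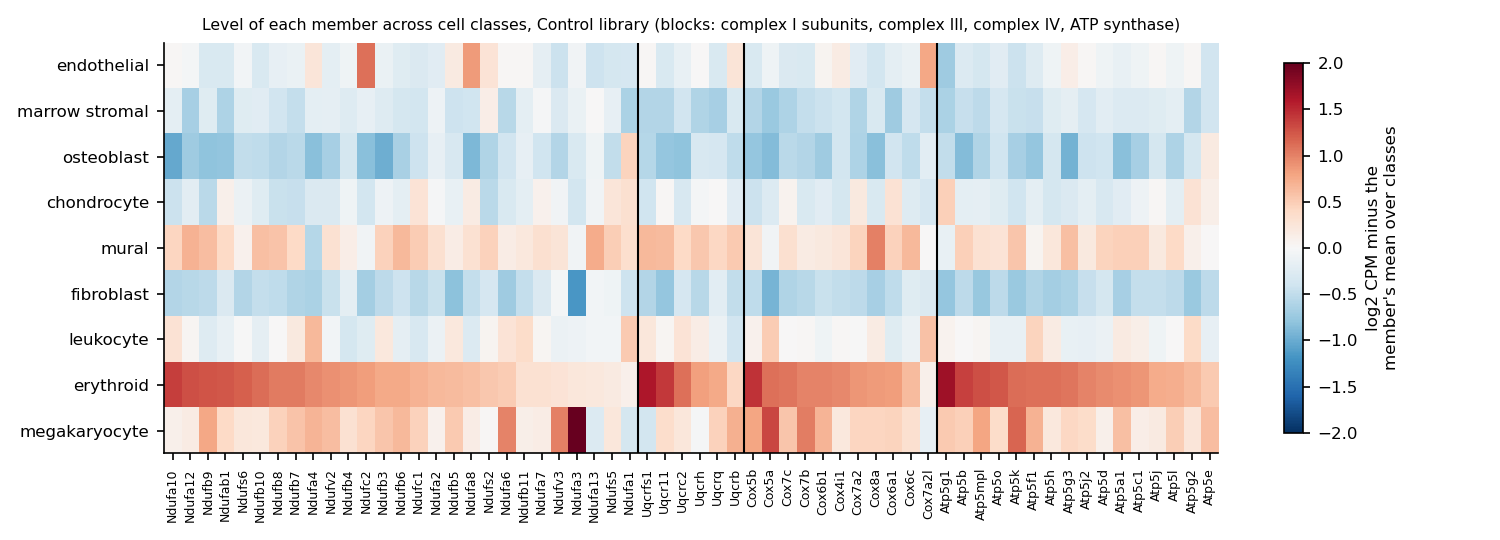
Heat map of the 60 members with enough UMIs in every class of the Control library, with a column for each gene, grouped by complex, and a row for each class, coloured by the log2 CPM minus the gene's mean over classes. The erythroid row is red for nearly every gene and the osteoblast and fibroblast rows are blue, while Ndufa3 stands out in megakaryocytes, and Ndufc2, Ndufa8 and Cox7a2l in ECs.

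Erythroid cells, which make heme partly in their mitochondria, were set against all other classified cells of the same library. Nearly all of them were cycling, 99.6% in Control and 99.3% in Dach1OE by the list used below. Against the other classes, 68 of 84 members in Control and 68 of 84 in Dach1OE were over 1.5-fold higher, where 28.7% and 29.5% of all tested genes were, and the median log2 ratio of the members was 1.08 in both libraries against −0.38 and −0.31 for all genes. The largest ratios after that of Cox6b2 belonged to Uqcrfs1, the Rieske iron-sulfur protein of complex III, with 309 against 85.7 CPM in Control, to Cox5b with 266 against 75.7 CPM, and to Ndufv1, which binds NADH in complex I, with 85.7 against 24.6 CPM. Some subunits did not share the high level. Ndufa1 stood at 330 CPM in erythroid cells and 329 CPM in the others, Cox7a2l, a factor of supercomplex assembly, at 161 and 166 CPM, and Cox4i2 at 1.87 and 133 CPM. In mural cells 18 of 84 members were over 1.5-fold higher in each library, against 17.9% and 20.7% of all genes. That share is close to the background, while the median of the members was 0.40 in both libraries against −0.16 and −0.09 for all genes. In osteoblasts 48 and 44 members were over 1.5-fold lower, against 68.3% of all genes in either library, so osteoblasts were not low in these genes in particular.

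ECs as a whole were near the middle, but a few members were high in them. Ndufc2, a complex I subunit, reached 347 CPM in Control ECs against 91.1 to 154 CPM in the mesenchymal classes and 289 CPM in erythroid cells. Gm16053 overlaps Ndufc2 on the same strand. Ndufa8, another complex I subunit, reached 142 CPM against 119.5 CPM in erythroid cells, the next class, and 42.4 CPM in osteoblasts. Cox7a2l reached 258 CPM in ECs and 226 CPM in leukocytes, against at most 161 CPM elsewhere. In the Dach1OE library ECs again held the highest level of Ndufa8, 133 CPM, and of Cox7a2l, 272 CPM, while Ndufc2, at 291 CPM, equalled the level of erythroid cells.

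The comparison of Dach1OE with Control asks how vascular overexpression of Dach1, a transcription factor, goes along with the state of bone cells. Dach1 stood at 5.27 CPM in Control ECs and 193 CPM in Dach1OE ECs, a log2 ratio of 5.20 (4.98 to 5.43), so the libraries carry the difference their labels give. In mural cells Dach1 stood at 3.84 and 11.6 CPM, in marrow stromal cells at 4.72 and 9.97 CPM and in chondrocytes at 2.81 and 5.17 CPM. Whether these small amounts come from the cells themselves was not tested.

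Over all ECs, respiratory chain genes differed little between the libraries. Whether their level went along with the Dach1 RNA of a cell was not tested. Control ECs held 14558 CPM of the members and Dach1OE ECs 14948 CPM, a log2 ratio of 0.04 (0.03 to 0.04), with 0.07 in Xist cells and 0.03 in Y-linked cells. Complex I subunits differed by 0.01, complex III by 0.08, complex IV by 0.05 and the ATP synthase by 0.05 on the log2 scale. Of 84 members with at least 100 UMIs over both libraries, 1 was over 25% higher in Dach1OE and 0 were lower by the same ratio, that is by over 20%, whereas 15.3% of all tested genes were higher and 11.4% lower past these limits, which are used throughout for this comparison. The shares over all genes, here and below and in the counts by sex, were not matched for level. Genes near 100 UMIs vary more by counting error than members with many, such as Atp5g3 with 23428 and 19788. The median of the members was 0.06 against 0.04 for all genes. In cells of both sexes 44 members were higher and 15 lower, that is 52.4% and 17.9%, against 41.3% and 29.1% of all tested genes. The summed difference is of the size that another scaling removes, since scaling by the median ratio of genes gave −0.0023, and it was 0.0238 without cycling cells.

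The balance of subunit c genes differed between the libraries in ECs. The mature protein of Atp5g1, Atp5g2 and Atp5g3 is the same, the ring-forming subunit c, and the genes differ in their import signals. Atp5g3 stood at 739 CPM in Control and 625 CPM in Dach1OE, a log2 ratio of −0.24 (−0.27 to −0.21), with −0.15 in Xist cells and −0.32 in Y-linked cells. Atp5g1 stood at 193 and 230 CPM, a ratio of 0.25 (0.20 to 0.30), with 0.29 and 0.27. As shares of the family, Atp5g1, Atp5g2 and Atp5g3 took 12.7%, 38.6% and 48.7% in Control ECs and 15.6%, 42.1% and 42.4% in Dach1OE ECs. In chondrocytes the same shares were 25.9%, 41.5% and 32.5% in Control and 25.9%, 41.0% and 33.1% in Dach1OE, and in osteoblasts 21.9%, 44.0% and 34.0% against 23.3%, 42.5% and 34.1%. Erythroid cells had the highest share of Atp5g1 of the classes named here, 30.6% and 31.0%.

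The mix of EC types differed between the libraries, and the levels of Atp5g3 and Ndufc2 differed among EC types. Sinusoidal ECs, the wide vessels of the marrow, were 69.7% of Control and 49.1% of Dach1OE ECs, arterial ECs (aECs) 4.46% and 12.4% and metaphyseal ECs (mpECs) 13.8% and 18.9%. The sinusoidal markers include Stab2 and Flt4, which the paper reports as decreased in Dach1OE ECs. Whether this moved cells out of the sinusoidal class was not tested. The metaphyseal markers include Aplnr, which the paper reports as shared by mpECs and type R ECs, the post-arterial capillary cells it describes. No marker list was made for type R ECs, so the cells called mpECs here may include them, and this was not tested. Atp5g3 was at 807 CPM in Control sinusoidal ECs and at 528 and 550 CPM in Control aECs and mpECs. Its ratio of Dach1OE over Control was −0.22 (−0.26 to −0.19) within sinusoidal ECs, −0.0029 (−0.12 to 0.12) within aECs and 0.05 (−0.03 to 0.12) within mpECs. Ndufc2 was at 395 CPM in Control sinusoidal ECs, 158 CPM in aECs and 225 CPM in mpECs, and its overall ratio of −0.25 (−0.29 to −0.21) became −0.16 (−0.20 to −0.11), 0.27 (0.06 to 0.49) and 0.04 (−0.08 to 0.16) within them. Both genes were thus lower in Dach1OE within sinusoidal ECs and not in the other EC types named. The difference between EC types was not tested, nor was the part of the mix in the ratios over all ECs.

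Atp5j, Atp5g1 and Atp5j2 had ratios of 1 sign in every EC type, including the ECs placed in none of these types, 12.1% and 19.7% of ECs. Atp5j, which encodes coupling factor 6 of the ATP synthase stalk, stood at 251 and 309 CPM, a ratio of 0.30 (0.26 to 0.34) with 0.29 in cells of either sex. It was 0.21 in sinusoidal ECs, 0.45 in aECs, 0.33 in mpECs and 0.28 in the unplaced ECs. The start of Atp5j lies beside Gabpa, which overlaps it on the opposite strand, so part of the count could belong there, and Gabpa itself stood at 78.4 and 73.7 CPM. Atp5g1 gave 0.23, 0.21, 0.21 and 0.13 in the same order, and its interval crossed 0 in the unplaced ECs (−0.0049 to 0.27). Atp5j2 gave values between −0.13 and −0.24, from 137 and 124 CPM over all ECs, with intervals that crossed 0 in aECs (−0.47 to 0.0028) and in the unplaced ECs (−0.31 to 0.05). Over all ECs the ratio of Atp5j2 was −0.19 in Xist cells and only −0.02 in Y-linked cells. Atp5s, at 23.7 and 19.0 CPM overall with a ratio of −0.32 (−0.47 to −0.16), gave −0.12 (−0.30 to 0.07) within sinusoidal ECs, −0.37 (−1.26 to 0.58) in aECs, −0.34 (−0.84 to 0.17) in mpECs and 0.19 (−0.34 to 0.73) in the unplaced ECs. Cox6b2, at 7.95 and 9.35 CPM over all ECs, gave 0.68 (0.36 to 1.01) within sinusoidal ECs and −0.95 (−1.57 to −0.34) in the unplaced ECs. It gave −0.83 (−1.99 to 0.40) in aECs and 0.13 (−0.47 to 0.74) in mpECs. In ECs that were not cycling Cox6b2 stood at 3.76 and 3.09 CPM, in the other direction. Cycling ECs, 7.78% and 10.6% of ECs, also held more erythroid marker RNA, as described below. The single member past the limit in ECs was Cox4i2, at 3.97 and 5.08 CPM from 126 and 161 UMIs, a ratio of 0.36 (0.01 to 0.70), a level at which its share of subunit IV UMIs in ECs is close to that in leukocytes, as described below. Its ratio was 0.14 in Xist cells and 0.59 in Y-linked cells. By EC type it was 0.22, 0.29, 0.57 and 0.15 in the same order, with intervals that crossed 0 in each. By EC type the summed level of all members differed by 0.0065 (−0.0011 to 0.0141) in sinusoidal ECs, 0.05 in aECs and 0.09 in mpECs, where it stood at 14630 and 15586 CPM, and mpECs at the same time held fewer mitochondrially encoded UMIs, 85570 against 79006 CPM.

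**Figure D3:**
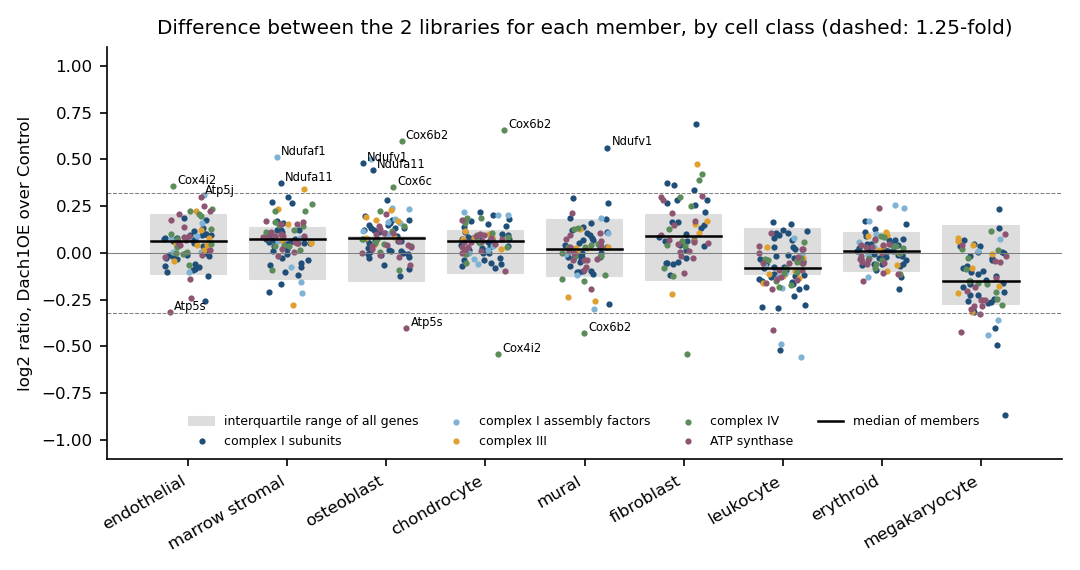
Log2 ratio of Dach1OE over Control for each member with at least 100 UMIs in a class, coloured by complex, with a black line at the members' median, a grey box for the interquartile range of all tested genes and dashed lines at 25% higher and 20% lower. Most members lie within the dashed lines in every class, with Cox4i2 lowest and Cox6b2 highest in chondrocytes at −0.54 and 0.66.

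Marrow stromal cells, the Cxcl12-rich cells that line marrow vessels, differed by 0.08 (0.06 to 0.09) in the summed level, with 0.07 in Xist and 0.04 in Y-linked cells, and by 0.0193 in cells with at least 4000 UMIs. They were 11.7% of the kept Control cells and 4.74% of the kept Dach1OE cells, 3109 and 1390 in number. The paper reports diaphyseal stromal cells as reduced in Dach1OE and metaphyseal ones as little changed. Whether the mix within this class differed between the libraries was not tested. Of 83 members 3 were over 25% higher and 0 over 20% lower, against 7.61% and 8.17% of all genes. These were Ndufaf1, an assembly factor of complex I, with 14.0 and 19.9 CPM and a ratio of 0.51 (0.11 to 0.91), Ndufa11 with 22.6 and 29.2 CPM and 0.37 (0.05 to 0.69), and Uqcr10, a small subunit of complex III, with 52.2 and 66.0 CPM and 0.34 (0.13 to 0.55). Ndufa11 is overlapped on the opposite strand by Vmac. The largest difference in the other direction was that of Uqcrc1, the core protein of complex III, with 59.2 and 48.7 CPM and −0.28 (−0.51 to −0.05). Of the 83 members 35 were higher and 12 lower in Dach1OE in cells of both sexes, that is 42.2% and 14.5%, against 26.7% and 27.8% of all tested genes.

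Glycolysis genes differed more than respiratory chain genes in the same stromal cells. Summed over the list of 10, they stood at 1252 and 1508 CPM, a ratio of 0.27 (0.23 to 0.31), and 7 of 10 were over 25% higher, against 7.61% of all genes. Pgk1, which makes ATP in glycolysis, stood at 88.3 and 121 CPM, Eno1 at 49.2 and 67.8 CPM and Ldha, which turns pyruvate into lactate, at 145 and 179 CPM. In ECs the glycolysis list differed by 0.16 (0.14 to 0.18) with 1 of 10 genes over 25% higher, Tpi1, at 42.1 and 55.3 CPM. That count is near the share of all genes, 15.3%. Ribosomal protein genes, another large group of housekeeping genes, differed by 0.23 in ECs and 0.19 in stromal cells, again more than the respiratory chain.

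Osteoblasts differed by 0.09 (0.08 to 0.10) in the summed level, with 0.12 in Xist and 0.10 in Y-linked cells. Complex III differed by 0.14, complex IV by 0.12, complex I subunits by 0.08 and the ATP synthase by 0.06. Of 83 members 5 were over 25% higher and 1 over 20% lower, against 3.62% and 8.6% of all genes. Cox6c, a small subunit of complex IV, stood at 359 and 459 CPM, a ratio of 0.35 (0.30 to 0.40), with 0.42 and 0.30 in Xist and Y-linked cells. Ndufa11 stood at 18.0 and 24.5 CPM with 0.44 (0.21 to 0.67), and Ndufv1 at 13.2 and 18.4 CPM with 0.48 (0.21 to 0.75). Ndufaf7, a methyltransferase that acts in complex I assembly, stood at 4.45 and 6.30 CPM. Cox6b2 was the fifth, at 3.40 and 5.15 CPM, and its direction was not the same in the sexes, with 1.64 in Xist and −0.42 in Y-linked cells. Atp5s, at 6.72 and 5.09 CPM, was the member past the limit in the other direction, with an interval that crossed 0 (−0.83 to 0.04). Vps13b overlaps Cox6c on the opposite strand. Of the 83 members 58 were higher and 5 lower in cells of both sexes, that is 69.9% and 6.02%, against 27.1% and 27.0% of all tested genes.

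In chondrocytes the summed difference was again small, and Cox4i2 stood apart from the other members. The summed level differed by 0.04 (0.04 to 0.05), or by 0.0214 without cycling cells, and 1 of 83 members was over 25% higher and 1 over 20% lower, against 5.92% and 8.23% of all genes. In cells of both sexes 54 members were higher and 10 lower, that is 65.1% and 12.0%, against 34.4% and 28.4% of all tested genes. Cox4i2 (ENSMUSG00000009876.13, chr2:152754173-152765037, plus strand, with no overlapping gene) stood at 312 CPM in Control and 215 CPM in Dach1OE, from 13357 and 12535 UMIs, a ratio of −0.54 (−0.58 to −0.51). Xist cells held 303 and 207 CPM and Y-linked cells 339 and 231 CPM, a ratio of −0.55 in each. Over all chondrocytes, the level in either sex of the Dach1OE library lay below that in either sex of the Control library, by more than counting error. Its partner Cox4i1, the common form of subunit IV, stood at 244 and 258 CPM.

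As a share of both forms, Cox4i2 took 56.2% (55.5 to 56.8) of the subunit IV UMIs in Control chondrocytes and 45.4% (44.8 to 46.0) in Dach1OE chondrocytes. By UMIs, Cox4i2 was thus the more abundant form in Control and Cox4i1 in Dach1OE. The share was 55.9% and 44.7% in Xist cells and 58.4% and 47.1% in Y-linked cells. Over all cells of a class, the shares of the libraries lay closer together in the other classes. Mural cells held 32.3% (29.8 to 34.8) and 33.5% (31.6 to 35.4), marrow stromal cells 10.3% and 11.5%, osteoblasts 3.08% and 3.07%, and ECs 1.12% and 1.43%. By sex the mural shares went opposite ways, with 39.2% and 32.4% in Xist cells and 30.7% and 36.5% in Y-linked cells. The intervals of the libraries overlapped in each sex. Leukocytes held 1.01% and 1.21% and erythroid cells 0.31% and 0.24%. Since these blood cells are not known for Cox4i2, values near those of leukocytes are read as background. That reading is an assumption, since no background was measured, and the share in ECs lay above that in erythroid cells.

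The share of chondrocytes with at least 1 Cox4i2 UMI was 67.1% in Control and 59.7% in Dach1OE. After every cell was thinned to 1000 UMIs, with 9 and 19 shallower cells left out, it was 21.8% (20.6 to 23.1) and 15.5% (14.6 to 16.4), against 0.391% and 0.433% of ECs, a class with little of the gene, whose median depth was 2798 and 2794 UMIs against 10084.5 and 9576.5 in chondrocytes. Cells with 10 or more Cox4i2 UMIs were 7.26% of Control and 2.47% of Dach1OE chondrocytes, and cells with none were 32.9% and 40.3%. The difference was thus spread over the range of levels.

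The split by Col10a1, the collagen of hypertrophic chondrocytes, was made after the values had been seen. Cells without Col10a1 UMIs were 57.5% of Control and 49.6% of Dach1OE chondrocytes, cells with up to 20 per 10000 UMIs were 22.3% and 29.6%, and cells with more were 20.2% and 20.8%, with 205 and 250 cells near the limit. Cox4i2 was lower in the last group of either library, with 337, 352 and 214 CPM across the groups in Control and 231, 244 and 145 CPM in Dach1OE. The ratio of Dach1OE over Control was −0.55, −0.53 and −0.56 in the 3 groups, and the share of Cox4i2 was 58.1%, 59.2% and 46.2% in Control against 47.7%, 48.2% and 35.5%. In Xist and Y-linked cells every ratio lay between −0.53 and −0.63. The groups did not hold the zone even, since other zone markers differed between the libraries within them. Ihh, a signal of prehypertrophic chondrocytes, stood at 231, 424 and 981 CPM in Control and 159, 309 and 952 CPM in Dach1OE, and Ucma, a matrix protein of upper growth plate cartilage, at 1188, 917 and 429 CPM and 1520, 1235 and 462 CPM.

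Cells without Col10a1 were therefore split further by UMIs of these markers, again after the values had been seen. Cells with both held a Cox4i2 share of 63.5% (62.2 to 64.7) in Control and 51.8% (50.4 to 53.2) in Dach1OE, a ratio in level of −0.55 (−0.62 to −0.48). Cells with Ucma and without Ihh held 54.6% and 46.9%, with a ratio of −0.47 (−0.54 to −0.40). The ratio was −0.52 (−0.98 to −0.08) in the 45 and 33 cells with Ihh alone and −0.70 (−1.18 to −0.23) in the 214 and 295 cells with neither. Cox4i2 was thus lower in Dach1OE in each of these groups, and its share was higher with Ihh than without in either library. The groups also differed in depth. The median was 12348 and 11424 UMIs with both markers, 8432 and 8176 with Ucma alone and 2603.5 and 2678 with neither. The part of depth in the share was not tested. Within the groups the level of Ucma still differed, with 834 and 1055 CPM in cells with both markers, and the part of such differences in the result was not tested.

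Ndufa4l2, left out of the members by the rule, is known as a gene induced by hypoxia, as Cox4i2 is, and it went the other way. It stood at 270 and 387 CPM in chondrocytes, a ratio of 0.52, and at 0.52, 0.50 and 0.60 in the Col10a1 groups. Its size differed between the sexes, with 0.38, 0.28 and 0.84 in Xist cells and 0.45, 0.59 and 0.43 in Y-linked cells. Y-linked cells held more of the gene in every group and numbered 1148 of 4228 Control and 2134 of 6042 Dach1OE chondrocytes, and in cells without Col10a1 the ratio over all cells exceeded that in either sex. Chondrocytes with a Cox4i2 UMI held 299 and 438 CPM of Ndufa4l2 and those without held 168 and 269 CPM, but the former were also deeper, with a median of 11576 and 10999.5 UMIs against 6288 and 7014. Ndufa4l2 was also higher in Dach1OE in stromal cells, with 17.6 and 44.5 CPM, in osteoblasts with 20.4 and 34.3 CPM and in ECs with 5.39 and 9.47 CPM. Hif1a, the oxygen-regulated transcription factor, stood at 145 and 150 CPM in chondrocytes at the level of its RNA. The chondrocytes' glycolysis genes, at 5289 and 5615 CPM, were the highest of the classes named here and differed by 0.09.

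**Figure D4:**
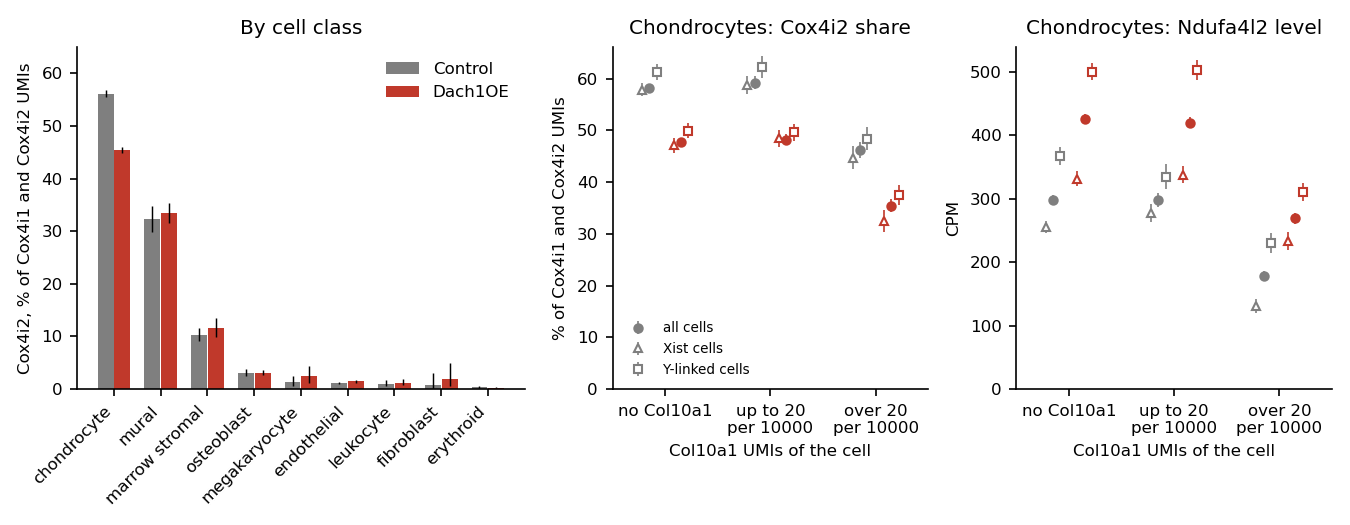
Cox4i2 as a percentage of Cox4i1 and Cox4i2 UMIs by cell class (left) and by Col10a1 group of chondrocytes (middle), and the level of Ndufa4l2 in CPM by Col10a1 group (right), for Control (grey) and Dach1OE (red), with exact 95% intervals; triangles are Xist cells, squares Y-linked cells and filled circles all cells. The Cox4i2 share in chondrocytes is 56.2% and 45.4% and the Dach1OE points lie below the Control points in every Col10a1 group. For Ndufa4l2 each Dach1OE point lies above the Control point of the same marker, but Dach1OE Xist cells without Col10a1, at 332 CPM, lie below Control Y-linked cells, at 366.5 CPM.

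Mural cells had the highest mitochondrially encoded level of the classes named here and a summed nuclear-encoded difference of −0.0040 (−0.02 to 0.01), with 0.0158 in Xist and −0.113 in Y-linked cells and −0.131 in cells with at least 4000 UMIs. Of 79 members 13 were higher and 22 lower in cells of both sexes, that is 16.5% and 27.8%, against 27.8% and 25.6% of all tested genes. Of 79 members 1 was over 25% higher and 1 over 20% lower, against 11.3% and 7.88% of all genes. Ndufv1 stood at 37.2 and 55.0 CPM, a ratio of 0.56 (0.22 to 0.92), with 0.95 in Xist and 0.32 in Y-linked cells. Cox6b2 stood at 47.6 and 35.4 CPM with −0.43 (−0.78 to −0.08), but at 0.34 in Xist and −0.89 in Y-linked cells. Mitochondrially encoded UMIs were at 147965 and 140151 CPM. A split made after the values had been seen separated the class by Myh11, the smooth muscle myosin, and Rgs5, a pericyte marker. Cells with Myh11 and without Rgs5, 223 and 319 in number, held 27051 and 26033 CPM of the members and a Cox4i2 share of 21.6% and 17.4%. Cells with Rgs5 and without Myh11, 52 and 160 in number, held 15314 and 16808 CPM and a share of 41.7% and 38.7%. Most cells held both, 735 and 1414 in number, with 18934 and 19702 CPM and a share of 36.1% and 36.6%, between the other groups. The comparison of those groups rests on few cells, and the interval of the share in the 52 Control cells ran from 29.1% to 55.1%.

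Over all cells of a class, blood cells that had escaped depletion lacked the small positive difference, as mural cells did. In leukocytes the summed level differed by −0.08 (−0.09 to −0.06), and 0 of 82 members were over 25% higher and 4 over 20% lower, against 7.75% and 5.04% of all genes. In leukocytes of both sexes 11 members were higher and 39 lower, that is 13.4% and 47.6%, against 28.4% and 26.6% of all tested genes. Cycling cells were 52.2% of Control and 47.2% of Dach1OE leukocytes. Without cycling cells the members differed by −0.05 (−0.08 to −0.03) in leukocytes. In megakaryocytes the summed level differed by −0.12 (−0.15 to −0.10), with 0 of 74 higher and 7 lower, against 10.8% and 20.6%, but by 0.06 in Y-linked cells. Cycling cells were 21.6% of Control and 11.7% of Dach1OE megakaryocytes, and mitochondrially encoded UMIs stood at 56361 and 41010 CPM, and without cycling cells the members differed by −0.07 (−0.10 to −0.04), at 17683 and 16868 CPM. The part of the mitochondrially encoded difference was not tested. In erythroid cells the difference was −0.0041 and 0 of 82 members passed in either direction, against 4.68% and 5.25% of all genes. Fibroblasts, with 254 and 210 cells, gave 0.12 (0.08 to 0.16), with 7 of 60 members higher and 1 lower against 13.4% and 10.7%.

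Cycling cells, defined by at least 2 of 8 genes of mitosis, held more respiratory chain RNA than other cells of their class. In Control ECs 17 of 83 members were over 1.5-fold higher in cycling cells, against 12.2% of all genes, and in Dach1OE ECs 12 of 83, against 11.6%, and the summed level was higher by 30.2% and 28.6%. In marrow stromal cells it was higher by 71.1% and 48.6%, in osteoblasts by 44.2% and 42.6% and in chondrocytes by 11.5% and 15.2%. In osteoblasts all tested genes had a median log2 ratio of 0.34 and 0.30, against 0.60 and 0.59 for the members. Part of the rise there was thus shared by genes in general. The median of all genes was −0.07 and −0.09 in ECs, −0.15 and −0.08 in stromal cells and 0.06 and 0.07 in chondrocytes. The 8 erythroid markers moved with this split: they stood at 232 CPM in cycling and 9.04 CPM in other Control ECs, and at 220 and 11.4 CPM in Dach1OE ECs, where erythroid cells themselves held 2177 and 2092 CPM. In cells without any UMI of an erythroid marker or haemoglobin gene, a choice made after the values had been seen, cycling ECs were higher by 14.2% and 15.1%, osteoblasts by 29.3% and 23.9%, Control stromal cells by 27.1% and chondrocytes by 2.79% and 4.93%. Cycling leukocytes in the same selection were higher by 28.2% and 31.2%. The difference was thus smaller in ECs, osteoblasts, Control stromal cells and chondrocytes once cells holding erythroid RNA were left out. The 8 leukocyte markers still moved with the split in them, at 247 against 155 CPM in Control ECs, 154 against 114 CPM in Dach1OE ECs, 568 against 34.8 CPM in Control stromal cells, 204 against 11.7 and 121 against 13.9 CPM in osteoblasts, and 49.6 against 25.9 and 55.1 against 27.9 CPM in chondrocytes, where leukocytes held 4759 to 5662 CPM. In cells without a UMI of either marker list or of haemoglobin, cycling ECs were higher by 15.6% and 15.4%, osteoblasts by 30.2% and 26.7%, Control stromal cells by 24.4% and chondrocytes by 2.83% and 4.08%.

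Cox6b2 (ENSMUSG00000051811.14, chr7:4751792-4753094, minus strand) is known as the testis form of complex IV subunit VIb. It was higher in cycling than in other ECs, chondrocytes, osteoblasts and stromal cells, and in Dach1OE mural cells. In osteoblasts it stood at 29.8 against 1.69 CPM in Control and 40.1 against 2.48 CPM in Dach1OE. Stromal cells held 93.7 against 17.2 and 78.2 against 15.7 CPM. In ECs, chondrocytes, osteoblasts and Control stromal cells the difference shrank when cells holding erythroid RNA were left out. The intervals then stayed apart in chondrocytes and Dach1OE ECs, and overlapped in Control ECs, osteoblasts and Control stromal cells. Osteoblasts then held 4.30 against 1.23 CPM in Control and 7.74 against 1.99 CPM in Dach1OE, from 2 and 5 UMIs in the cycling cells. Control stromal cells then held 26.4 against 17.3 CPM. Erythroid cells held 193 and 198 CPM, where it took 18.9% (18.0 to 19.7) and 19.6% (18.8 to 20.4) of the UMIs of Cox6b1 and Cox6b2, and leukocytes held 83.8 and 80.9 CPM with shares of 17.5% and 17.8%. Its share was 9.05% and 6.75% in mural cells, 7.22% and 6.67% in stromal cells, and at most 2.92% in chondrocytes, ECs and osteoblasts. In cycling ECs it stood at 36.4 CPM against 3.76 CPM in other ECs of the Control library, and at 39.5 against 3.09 CPM in Dach1OE. Without the cells holding erythroid RNA these values were 6.45 (3.69 to 10.5) against 3.92 (3.18 to 4.80) CPM, and 6.19 (3.88 to 9.37) against 2.98 (2.32 to 3.76) CPM. In chondrocytes the cycling cells held 22.9 against 2.90 CPM in Control and 32.7 against 3.94 CPM in Dach1OE, and without erythroid RNA 9.04 (6.88 to 11.7) against 2.65 (2.10 to 3.30) CPM and 11.2 (9.31 to 13.4) against 3.82 (3.24 to 4.48) CPM. The leukocyte markers moved with this split too, as given above. In cells without erythroid, haemoglobin and leukocyte marker UMIs Cox6b2 stood at 5.47 (2.01 to 11.9) against 5.13 (4.03 to 6.44) CPM in Control ECs and 6.15 (3.27 to 10.5) against 2.69 (1.96 to 3.601) CPM in Dach1OE ECs, with overlapping intervals in each. In chondrocytes of the same selection it stood at 8.57 (6.20 to 11.5) against 2.67 (2.05 to 3.41) CPM in Control and 10.997 (8.88 to 13.5) against 3.69 (3.05 to 4.41) CPM in Dach1OE, so the cycling cells were still higher there. Cycling leukocytes held 86.8 against 78.2 CPM in Control and 90.1 against 67.5 CPM in Dach1OE.

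The difference of Cox6b2 between the libraries in chondrocytes, 7.11 and 11.2 CPM with a ratio of 0.66 (0.46 to 0.86), was the largest positive one among the members there. It was 0.60 in Xist and 1.13 in Y-linked cells. Cycling cells numbered 846 of 4228 Control and 1407 of 6042 Dach1OE chondrocytes, and the erythroid markers in cycling chondrocytes stood at 113 and 130 CPM. In cells that neither cycled nor held erythroid RNA, the Dach1OE value of 3.82 CPM still lay above the Control value of 2.65 CPM, with intervals that met between 3.24 and 3.30 CPM. Without leukocyte marker UMIs as well, the intervals of 3.69 and 2.67 CPM given above overlapped.

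**Figure D5:**
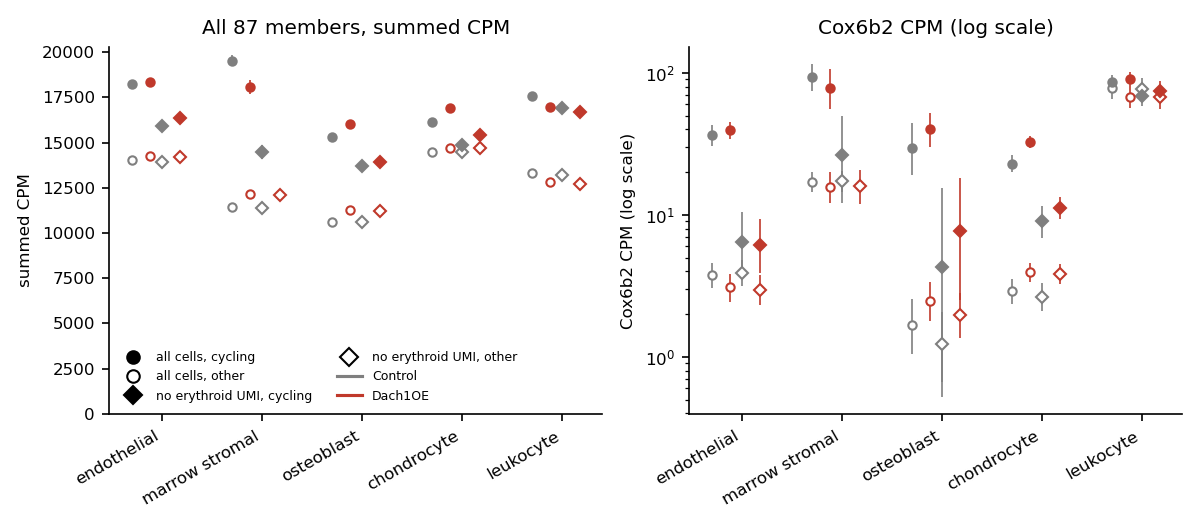
Summed level of the 87 genes (left) and of Cox6b2 on a log axis (right), in CPM, in cycling cells (filled) and other cells (open) of 5 classes, for Control (grey) and Dach1OE (red), with exact 95% intervals; circles are all cells and diamonds cells without a UMI of an erythroid marker or haemoglobin gene. The gap for Cox6b2 in Control ECs narrows from 36.4 against 3.76 CPM to 6.45 against 3.92 CPM, and Dach1OE stromal cells have no filled diamond because under 50 such cells were left.

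The remaining paralogues of complex IV were dominated by the common form. Cox6a2 took at most 0.36% of its pair, Cox7b2 at most 0.58% and Cox8b at most 0.204%, and these are the heart, muscle or testis forms. Cox7a1, the heart and muscle form, was highest in mural cells with 3.69% (2.62 to 5.02) and 3.01% (2.24 to 3.94) of its family of 3. Cox7a2 took 35.6% and 37.9% of that family in ECs, 45.6% and 50.9% in osteoblasts, 61.5% and 63.6% in chondrocytes and 65.9% and 65.3% in erythroid cells, with Cox7a2l making up nearly all the rest.

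Of the genes around the chain, complex II and the electron carriers, 9 genes outside the name rule, differed by 0.03 in ECs, 0.01 in stromal cells, 0.03 in osteoblasts and 0.07 in chondrocytes. The 13 mitochondrially encoded genes differed by −0.02 in ECs, 0.11 in stromal cells, −0.03 in osteoblasts, 0.01 in chondrocytes and −0.08 in mural cells, and 0 of 13 passed 25% higher or 20% lower in any of these classes. In osteoblasts the nuclear-encoded sum differed in the other direction, by 0.09, whereas in ECs the sign of the nuclear-encoded sum depended on the scaling. Among 12 regulators, such as the coactivator Ppargc1a and the transcription factors Nrf1, Gabpa and Esrra, 11 had enough UMIs in ECs and 0 passed these limits. Of all genes in ECs 15.3% were higher and 11.4% lower past them. Pprc1, a coactivator related to Ppargc1a, stood at 33.8 and 40.2 CPM there and Hif1a at 128 and 108 CPM, the values farthest apart in each direction. In chondrocytes, where 5.92% of all genes were higher and 8.23% lower, 1 of 11 passed. This was Ppargc1b, at 1.33 and 1.71 CPM with an interval that crossed 0 (−0.12 to 0.86), and Nrf1 stood at 20.7 and 22.5 CPM.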

How the data were processed

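scRNA-seq tables of 2 libraries were analysed, 1 Control and 1 Dach1OE. The deposited values are counts: for each cell and gene the authors give UMIs corrected by recursive substitution error correction (RSEC). Per the file headers the counts come from the BD Rhapsody WTA Analysis Pipeline 1.11 with GRCm38 and GENCODE vM19, counting intronic reads; the methods name another version. Whether strand was used is not stated, so overlapping genes are uncertain. The tables held 28720 and 32028 cells with 143986818 and 166999989 UMIs (1.51 and 1.45 reads per UMI).

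Cells with 500 to 6000 genes and under 25% mitochondrial UMIs were kept. A class needed at least 3 of 8 markers and 2 more than any other list, which also set aside mixed cells, and no doublet caller was run. EC types needed 2 markers and a margin of 1. UMIs were summed per class and divided by the class total (CPM), with exact Poisson, binomial and conditional binomial 95% intervals (scipy 1.17.1, numpy 2.4.6, pandas 2.3.3). Genes needed 100 UMIs over both libraries to be counted past a fold. Members named in 5 classes were mainly taken from the 5 most different in each direction among these, with paralogue families, central subunits and the widest and narrowest members. Not all members chosen by this rule are named above. The code was tested on simulated data. Members, lists and rules were chosen with earlier results of these data known. Gene positions come from GENCODE vM21 on GRCm38, and promoter sequences from RefSeq. Alternatives were scaling by the median ratio, cell filters, gates, sex, cycling cells, equal weight of cells and EC types, folds and UMI minimums.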

Additional observations from a re-analysis of the deposited data

Results flagged for a closer look

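In erythroid cells the ratio of Dach1OE over Control had opposite signs in Xist and Y-linked cells. The summed level of the members gave 0.05 in Xist and −0.06 in Y-linked cells, a gap of 0.106 on the log2 scale. Complex I subunits gave 0.07 and −0.04, a gap of 0.108, and complex IV gave 0.05 and −0.09, a gap of 0.140. In megakaryocytes the members gave −0.12 in Xist and 0.06 in Y-linked cells, a gap of −0.181. The summed ratios of leukocytes, −0.0754, and of megakaryocytes, −0.124, were opposite in sign to those of ECs, stromal cells, osteoblasts and chondrocytes. These differences were not tested, since each sex and class rests on 1 library per group.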

How the results depend on the processing

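With 1 library per group no replicate could be left out. No paired analysis was possible because each group has 1 library and no test was made. The values as reported were a summed log2 ratio of 0.0382 in ECs, 0.0784 in stromal cells, 0.0900 in osteoblasts, 0.0415 in chondrocytes and −0.0040 in mural cells, Cox4i2 shares of 56.2% and 45.4% in chondrocytes, and 11 members higher and 3 lower past the limits of 25% higher and 20% lower over the 5 classes with named genes. Scaling by the median ratio gave −0.0023 in ECs, 0.116 in osteoblasts, 0.0311 in chondrocytes, −0.0335 in mural cells and 5 members lower. A mitochondrial limit of 10% gave 0.0521 in ECs, 0.0756 in osteoblasts, −0.0228 in mural cells, shares of 57.4% and 46.5% and 8 lower. Cells with 1000 to 6000 genes gave −0.0448 in mural cells. Cells with at least 4000 UMIs gave 0.0506 in ECs, 0.0193 in stromal cells, −0.131 in mural cells and 13 lower. The looser gate gave 0.0965 in stromal cells, 0.0788 in osteoblasts, 0.0506 in chondrocytes and shares of 54.5% and 43.2%, and the stricter gate 0.102 in osteoblasts, 0.0366 in chondrocytes, shares of 57.0% and 46.6% and 5 lower. Equal weight of cells gave 0.0320 in ECs, 0.0293 in mural cells and shares of 53.3% and 42.9%. Xist cells gave 0.0677 in ECs, 0.122 in osteoblasts, 0.0658 in chondrocytes, 0.0158 in mural cells, a Dach1OE share of 44.7%, 18 higher and 5 lower. Y-linked cells gave 0.0260 in ECs, 0.0440 in stromal cells, 0.0236 in chondrocytes, −0.113 in mural cells, shares of 58.4% and 47.1% and 11 lower. Leaving out cycling cells gave 0.0238 in ECs, 0.0214 in chondrocytes and shares of 57.6% and 47.0%. A fold of 1.5 left 2 higher and 0 lower, no minimum of UMIs gave 12 lower, and equal weights of EC types gave 0.0508 in ECs. The split by Col10a1, chosen after seeing the data, gave shares of 58.1% and 47.7%, 59.2% and 48.2%, and 46.2% and 35.5%. Cox6b2 turned in osteoblasts to −0.0230 under the looser gate and −0.42 in Y-linked cells, and in mural cells to 0.34 in Xist cells, and the cause was not tested. Over the values of single genes, complexes and families under the alternatives, 1547 moved by less than their counting interval, 278 by more and the 3 of Cox6b2 turned, and of 948 log2 ratios of single genes or complexes under an alternative 39 took the other sign.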
